A study of Mus musculus with 13 samples.

Results

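The heat-shock chaperones described here are 10 genes (Hspa8, Hspa1a, Hspa1b, Dnajb1, Dnaja1, Hsp90aa1, Hsp90ab1, Hsph1, Hspe1 and Hspd1), taken by symbol from the 21084 genes of the deposited count table. Their transcripts were measured by RNA-seq in gamma delta intraepithelial lymphocytes, T cells that reside between the epithelial cells of the small intestine, sorted from wild-type (WT) mice. Strain, age and sex of the mice are not given in the sources used here, and the 13 libraries, biological replicates by their labels, form 4 groups and are named by group and replicate number. Whether a library came from 1 mouse or a pool is not stated. UC7-IFNa mice (3 libraries) and UC7-PBS mice (3 libraries) received 200 ug of UC7-13D5, an antibody to the gamma delta T cell receptor. IgG-IFNa mice (4 libraries) and IgG-PBS mice (3 libraries) received 200 ug of Armenian hamster IgG, an antibody without that target. Antibody was given intraperitoneally, at 48 and 24 h before cell isolation by the treatment protocol, whereas the design text counts those hours to the next injection and joins them with "or". The IFNa groups then received 1 ug of murine IFNa, a type I interferon, into a vein, and the PBS groups received phosphate-buffered saline, 5 h before isolation. No group was left without an injected antibody, and the libraries were made with a full-length amplification kit (SMART-Seq HT) from RNA of the sorted cells.

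Heat-shock chaperones bind unfolded or partly folded proteins and help them fold, reassemble or reach degradation. Hsp70 proteins do this in cycles of ATP use that J-domain proteins start and nucleotide exchange factors reset, and Hsp90 proteins take over kinases, receptors and other clients at a later step. Some members are made at all times and others mainly after heat, oxidation or handling, when heat-shock factor 1 (Hsf1) binds heat-shock elements, arrays of the inverted unit nGAAn, in their promoters. In lymphocytes these genes are also known to respond to activation and to tissue dissociation.

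The promoter sequences are shown because heat-shock elements are the feature by which most of these genes are known to be switched on together. RefSeq windows of 250 bases before to 50 after a start site (build GRCm38.p6, which is not the mm39 build of the counts) were found for 7 of the 10 members. The letters searched were GAANNTTC and TTCNNGAA, pairs of inverted units that each read the same on both strands, and the triple arrays GAANNTTCNNGAA and TTCNNGAANNTTC, which are each other's reverse complement and contain the pairs. A pair was present in a window of 6 of the 7 members and of 17.0% of the 27025 genes with a window, and a triple array in a window of 3 of the 7 and of 0.662% of those genes. By window the shares were 15.1% and 0.603% of 32851. The 3 are Hsph1, Hspe1 and Hspd1, of which Hspe1 and Hspd1 lie head to head and share the same stretch of DNA, so that their windows have 285 bases in common. Hspa1a and Hspa1b, tandem genes in the same orientation, differed at 4 of 300 positions of their windows and held the same pair. Neither Dnajb1 window held a pair. The 150 bases before the start site follow for 5 members, 5' to 3' on the gene's strand, with matches in capitals.
Hspa1a: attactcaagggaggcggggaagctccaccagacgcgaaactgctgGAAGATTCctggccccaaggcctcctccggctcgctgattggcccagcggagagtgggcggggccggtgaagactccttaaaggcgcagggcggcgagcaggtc
Hspa1b: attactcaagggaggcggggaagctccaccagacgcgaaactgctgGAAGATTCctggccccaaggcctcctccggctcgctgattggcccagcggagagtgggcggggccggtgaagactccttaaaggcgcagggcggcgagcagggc
Dnaja1: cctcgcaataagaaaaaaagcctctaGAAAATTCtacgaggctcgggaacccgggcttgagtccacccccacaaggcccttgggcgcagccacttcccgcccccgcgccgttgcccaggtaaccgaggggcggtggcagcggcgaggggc
Hsph1: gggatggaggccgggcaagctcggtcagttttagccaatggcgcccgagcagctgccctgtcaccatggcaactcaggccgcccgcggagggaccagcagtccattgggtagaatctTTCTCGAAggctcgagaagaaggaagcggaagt
Hspe1: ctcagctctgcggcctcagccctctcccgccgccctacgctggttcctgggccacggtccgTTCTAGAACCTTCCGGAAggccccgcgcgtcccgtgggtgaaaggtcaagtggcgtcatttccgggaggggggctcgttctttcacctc
In GRCm38.p6 these stretches are chr17:34972157-34972306 on the minus strand, chr17:34959239-34959388 on the minus strand, chr4:40722318-40722467 on the plus strand, chr5:149636337-149636486 on the minus strand, and chr1:55087998-55088147 on the plus strand. The triple array of Hsph1 lies just after the start site used here (chr5:149636288-149636300 on the minus strand) and reads TTCTGGAAAGTTC. A match describes letters in a window and does not show binding.

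In the deposited table (mm39) the members lie on 7 chromosomes. Hspa8, the constitutive cytosolic Hsp70, is ENSMUSG00000015656 on chromosome 9 (40712280 to 40721384, plus strand). The stress-inducible Hsp70 genes Hspa1a (ENSMUSG00000091971, 35188166 to 35191133) and Hspa1b (ENSMUSG00000090877, 35175412 to 35178215) are neighbours on the minus strand of chromosome 17. Of the chaperonin pair, Hspe1 (ENSMUSG00000073676, 55127291 to 55130467, plus strand) and Hspd1 (ENSMUSG00000025980, 55116994 to 55127403, minus strand) overlap by 113 bases on chromosome 1. Dnaja1 overlaps the opposite-strand gene Smu1 by 609 bases, and the sources used here do not give whether reads were counted by strand.

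Library totals ran between 19867201 and 26895876 estimated counts, with UC7-IFNa 2 the lowest. Levels are given as CPM, counts scaled to a common library size with edgeR's trimmed mean of M-values (TMM), and they are not corrected for gene length. Trdc, the constant region of the delta chain, was present in every library, and Irf7, an interferon-induced transcription factor, averaged 371 CPM in IgG-IFNa against 141 CPM in IgG-PBS libraries (log2 fold change 1.40, SE 0.16, edgeR quasi-likelihood test, Benjamini-Hochberg adjusted p = 0.000794). UC7-IFNa 2 stood apart, with 1.14% of counts from the ribosomal gene Rn18s against 0.0866% to 0.333% in the other 12 libraries, and the members' results that use it are given with and without it. Sex-linked transcripts separated the antibody groups. All 6 UC7 libraries had Y-linked transcripts (132 to 329 CPM summed over 4 genes) and the 3 IgG-PBS libraries had Xist (265 to 345 CPM). Among IgG-IFNa libraries, 1 and 2 had Xist and at most 2.15 CPM of the Y-linked sum, while 3 and 4 had both. Antibody and these transcripts therefore cannot be told apart in the PBS comparison. Under IFNa, Xist also separated the antibody groups, with at most 0.296 CPM in UC7-IFNa and 23.4 to 215 CPM in IgG-IFNa libraries. Antibody and Xist cannot be told apart there. As in any bulk sample, fewer cells of a type and less RNA per cell cannot be told apart either.

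The 10 members together took 0.359% to 1.27% of a library's counts, and they moved up and down together. They made up 0.423%, 0.701% and 0.562% of counts in UC7-IFNa 1 to 3, and 0.581%, 0.359% and 0.437% in UC7-PBS 1 to 3. In IgG-IFNa 1 to 4 they made up 0.503%, 0.909%, 0.475% and 0.816%, and in IgG-PBS 1 to 3 they made up 1.23%, 0.88% and 1.27%. The 3 IgG-PBS libraries had higher shares than all others except IgG-IFNa 2, which lay above IgG-PBS 2. With all 13 libraries, the mean of every member was highest in IgG-PBS and lowest in UC7-PBS, with both IFNa groups in between. IgG-IFNa had the second highest mean for 8 members and UC7-IFNa for Dnajb1 and Hspe1. Part of this order rested on UC7-IFNa 2. Without it, the UC7-IFNa mean lay below UC7-PBS for Hspa1a (338 against 362 CPM) and Hspa1b (479 against 576 CPM). The same held for Dnajb1 (281 against 329 CPM) and Hsp90aa1 (219 against 263 CPM), but not for the other members. Dnajb1 and Hspe1 were then higher in IgG-IFNa (457 and 71.1 CPM) than in UC7-IFNa (281 and 46.9 CPM). The libraries of UC7-IFNa and IgG-IFNa overlapped for all 10 members, those of UC7-IFNa and UC7-PBS for 8, and those of IgG-IFNa and IgG-PBS for 9.

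**Figure D1:**
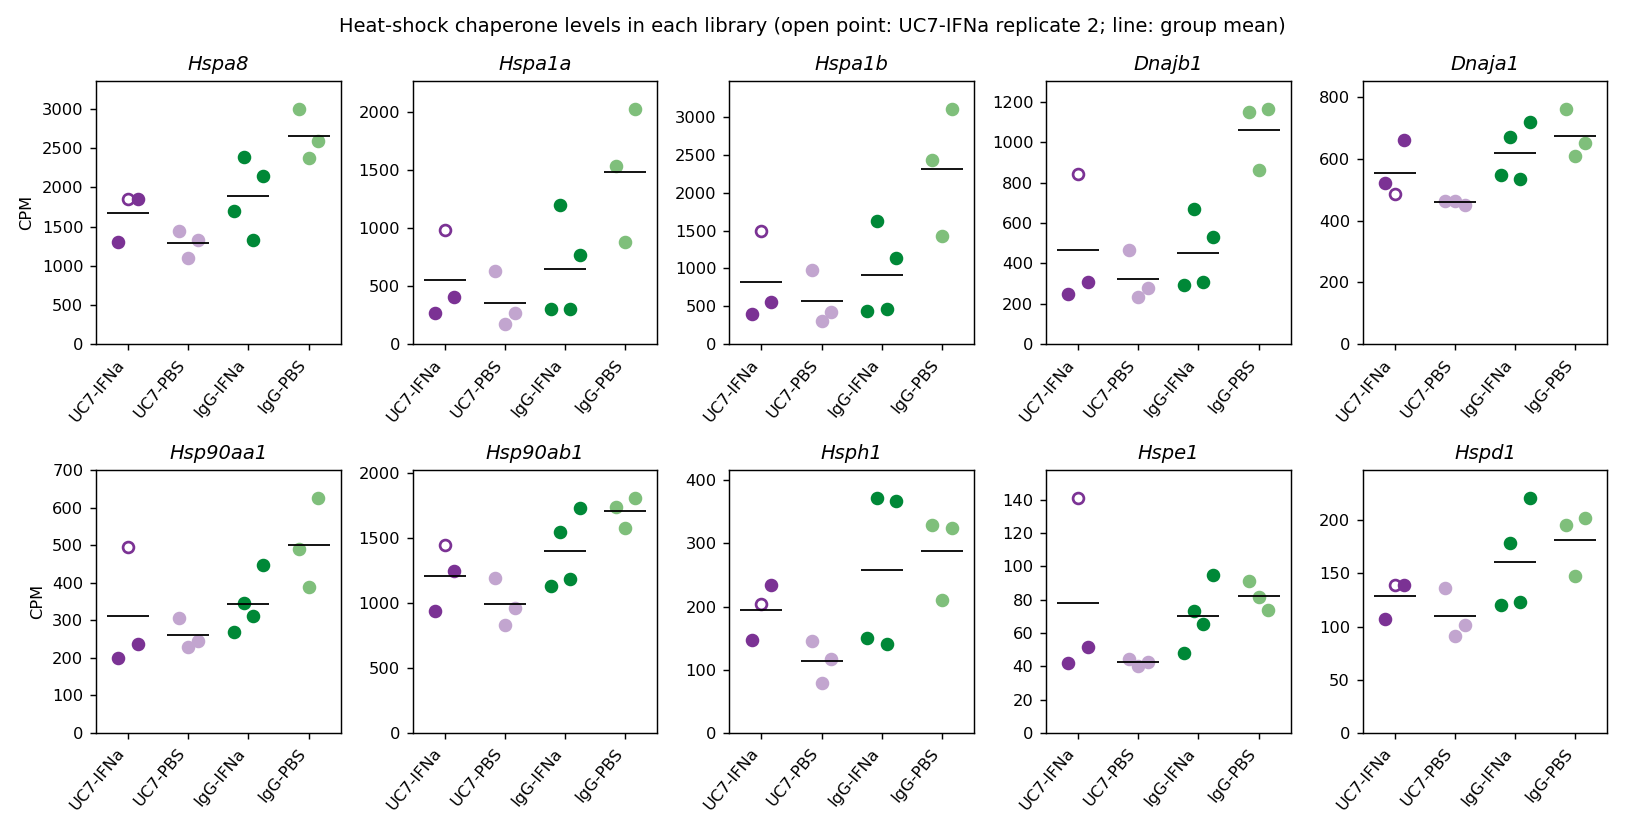
CPM (linear axis from 0) of each of the 10 genes in every library, by group, with a line at the group mean and UC7-IFNa 2 as an open point. For each gene the 3 IgG-PBS points lie above the 3 UC7-PBS points, and the IFNa groups spread across the gap between them.

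The stress-inducible Hsp70 genes varied most. Hspa1a ranged 11.4-fold over the 13 libraries, with 177 CPM in UC7-PBS 2 and 2023 CPM in IgG-PBS 3, and Hspa1b ranged 10.3-fold between the same libraries. Dnajb1, the J-domain partner of Hsp70 that is induced with it, ranged 5.01-fold and Hsph1, an Hsp110 protein that resets the Hsp70 cycle, 4.66-fold. The smallest range was 1.69-fold, for Dnaja1, a J-domain protein of the cytosol. Among the 3419 genes at or above the members' lowest mean level, only 0.292% had a larger standard deviation (SD) of log2 CPM than Hspa1a, 0.322% than Hspa1b and 0.556% than Dnajb1, whereas 43.5% had a larger one than Dnaja1. The lowest library was UC7-PBS 2 for 8 members, UC7-PBS 3 for Dnaja1 and UC7-IFNa 1 for Hsp90aa1.

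Across the 13 libraries the 45 pairs of members had Pearson correlations of log2 CPM between 0.482 (Dnaja1 with Hspe1) and 0.997 (Hspa1a with Hspa1b), with a median of 0.854. With the group means subtracted the median was 0.809, so most pairs also went together among libraries of 1 group. Over all 13 libraries Dnaja1 did so only in part. Its values were 0.00920 with Hspe1, the lowest of all pairs, 0.0424 with Hsp90aa1 and 0.151 with Dnajb1, but 0.729 with Hsph1. Without UC7-IFNa 2 the medians were 0.888 and 0.825, and the lowest values 0.670 and 0.536. With the group means subtracted, Dnaja1 then had 0.780 with Hspe1, 0.616 with Hsp90aa1 and 0.679 with Dnajb1. Its low values thus rested on UC7-IFNa 2. These values are descriptions, and the 2 levels of a pair come from the same library with its depth and scaling. Within IgG-IFNa, libraries 2 and 4 were higher than libraries 1 and 3 for every member, and this division did not follow the sex-linked transcripts, which set libraries 1 and 2 apart from 3 and 4.

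**Figure D2:**
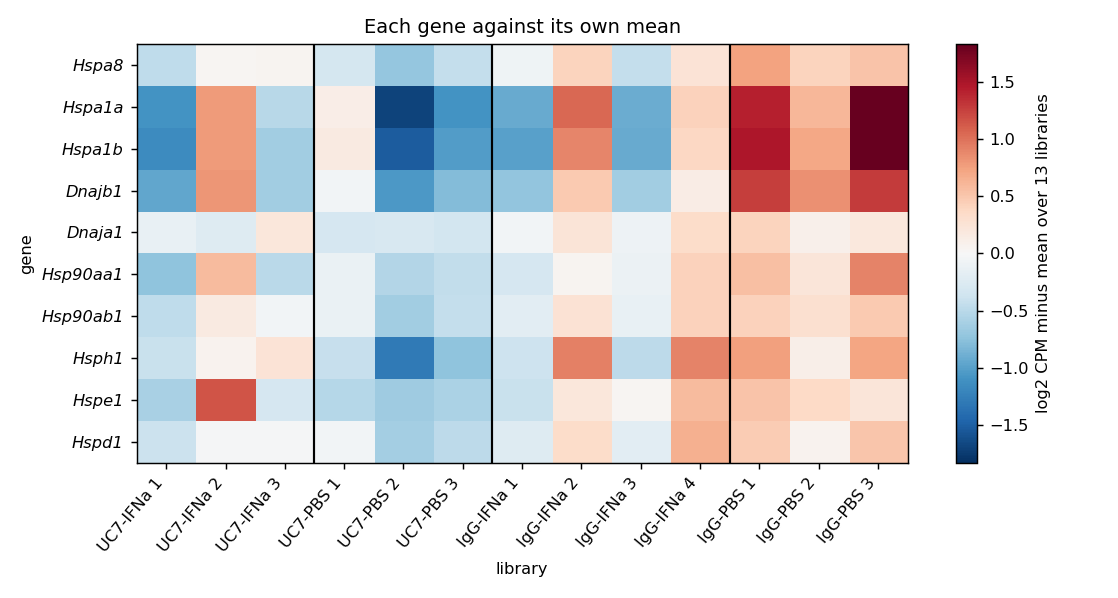
Log2 CPM of each gene (rows) in each library (columns), less the gene's mean over the 13 libraries, in red where higher and blue where lower. Most columns are largely of 1 colour, deepest for Hspa1a, Hspa1b and Dnajb1, and IgG-IFNa 2 and 4 differ from IgG-IFNa 1 and 3.

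The first question was whether binding of the receptor by UC7-13D5, without IFNa, went with another chaperone level. All 10 members were lower in UC7-PBS than in IgG-PBS libraries, by log2 fold changes between -2.05 and -0.55 (median -0.999, against a median of -0.01 over all 15835 genes tested). For none of the 10 did the groups overlap, as was true in this direction of 5.8% of all genes, and 51.7% of all genes had a fold change below 0. None of the 10 passed an adjusted p of 0.05 in edgeR's quasi-likelihood test on all 4 groups, and of all genes 0.00632% did, namely 1 gene, Xist (log2 fold change -8.66, SE 0.91, adjusted p = 0.00958), named after its value was seen. At an unadjusted p under 0.05 all 10 were lower, as were 1.55% of all genes. The 10 were chosen with earlier results of these data known, and their levels moved together, so they are not 10 separate observations. DESeq2 called 2 of the 10 and 0.436% of all genes, limma-voom 1 and 0.12%, and limma on the authors' normalized counts none and 0.00886%. The edgeR fit on these groups alone called 3 and 0.127% of all genes. All 10 had an unadjusted p under 0.05 when any 1 library was left out, beside 540 to 1200 of all genes in either direction. With Y-linked transcripts as a covariate, 5 of the 10 did, beside 923 of all genes in either direction. That covariate cannot be told apart from the antibody here.

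Hspa8, the constitutive Hsp70 that folds new proteins and uncoats clathrin vesicles, had 1438, 1104 and 1332 CPM in UC7-PBS libraries, against 2996, 2371 and 2589 CPM in IgG-PBS libraries. The highest UC7-PBS library lay well below the lowest IgG-PBS library. The log2 fold change was -1.04 (SE 0.21, edgeR adjusted p = 0.202). Hspa8 is the member that other fits called most often: with DESeq2 its adjusted p was 0.00287, with limma-voom 0.0246 and in edgeR on these groups alone 0.0156, within a range of 0.00287 to 1 over 25 alternative fits. Its fold change stayed between -1.13 and -0.86 in all 25.

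Hspa1a had 627, 177 and 268 CPM in UC7-PBS libraries, against 1537, 877 and 2023 CPM in IgG-PBS libraries. Hspa1b, which encodes nearly the same protein, had 977, 302 and 429 CPM in UC7-PBS libraries, against 2425, 1428 and 3100.3 CPM in IgG-PBS libraries. UC7-PBS 1 was the highest of its group and IgG-PBS 2 the lowest of its group for both genes, and the groups did not overlap. The log2 fold changes were -2.05 (SE 0.67, adjusted p = 0.61) for Hspa1a and -2.03 (SE 0.65, adjusted p = 0.595) for Hspa1b. Their transcripts were 99.1% identical over 2200 aligned bases, with an identical stretch of 638 bases, so reads can be split between them by the counting. Hspa1a made up 36.9% to 42.4% of the pair in the 13 libraries, and the pair summed to 1 feature gave -2.03 (SE 0.65, adjusted p = 0.601). With 1 library left out, the log2 fold change of Hspa1a was -2.74 without UC7-PBS 1, -1.73 without UC7-PBS 2 and -1.76 without IgG-PBS 3. That of Hspa1b was -2.67, -1.72 and -1.76 without the same libraries. The smallest values over 24 alternatives, -1.24 for Hspa1a and -1.26 for Hspa1b, came with Y-linked transcripts as a covariate, which in this comparison cannot be told apart from the antibody.

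Dnajb1, which delivers substrates to Hsp70 and speeds its ATP use, had 466, 232 and 278 CPM in UC7-PBS libraries, against 1151, 861 and 1163 CPM in IgG-PBS libraries. The gap between the groups was larger than the range within UC7-PBS. The log2 fold change was -1.70 (SE 0.42, adjusted p = 0.353), and on these groups alone the adjusted p was 0.0341, within a range of 0.0341 to 1 over 25 alternatives. Dnaja1, which works with Hspa8, had 462, 464 and 451 CPM in UC7-PBS libraries, against 761, 611 and 650.3 CPM in IgG-PBS libraries. Its UC7-PBS libraries were almost equal (459 ± 7.05 CPM, SD, n = 3), and its log2 fold change of -0.55 (SE 0.16, adjusted p = 0.474) was the smallest of the 10. Hsph1 had 146, 79.7 and 118 CPM in UC7-PBS libraries, against 328, 211 and 324 CPM in IgG-PBS libraries, with a log2 fold change of -1.33 (SE 0.36, adjusted p = 0.398). DESeq2 called Hsph1 with an adjusted p of 0.0477, the lowest of a range that reached 1 over 25 alternatives.

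Hsp90aa1, the inducible cytosolic Hsp90, had 305, 229.7 and 244 CPM in UC7-PBS libraries, against 489, 388 and 626 CPM in IgG-PBS libraries (log2 fold change -0.95, SE 0.29, adjusted p = 0.514). Hsp90ab1, the constitutive Hsp90, had 1191, 831 and 959.9 CPM in UC7-PBS libraries, against 1735, 1579 and 1809 CPM in IgG-PBS libraries (log2 fold change -0.78, SE 0.20, adjusted p = 0.392). Both Hsp90 genes were thus lower by less than Hspa1a, Hspa1b, Dnajb1 and Hsph1. The mitochondrial chaperonin Hspd1 (Hsp60) had 137, 91.4 and 101 CPM in UC7-PBS libraries, against 196, 148 and 202 CPM in IgG-PBS libraries (log2 fold change -0.73, SE 0.23, adjusted p = 0.552). Its lid protein Hspe1 (Hsp10) had 44.1, 40.4 and 42.4 CPM in UC7-PBS libraries, against 91.3, 81.7 and 73.9 CPM in IgG-PBS libraries (log2 fold change -0.96, SE 0.35, adjusted p = 0.696). For Hspe1 the spread within UC7-PBS was small, and the fit on these groups alone gave an adjusted p of 0.0155 in a range of 0.0155 to 1 over 25 alternatives.

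**Figure D3:**
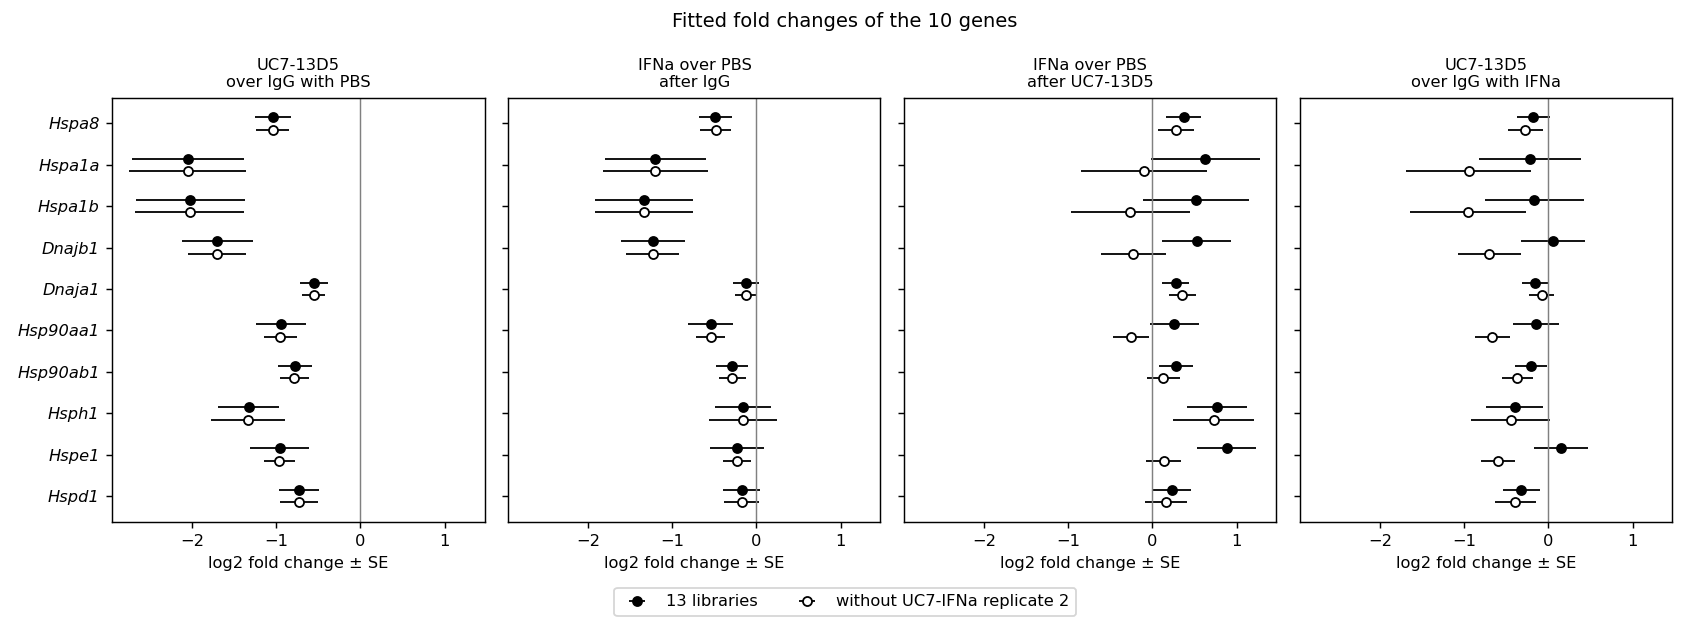
Log2 fold changes (horizontal axis, first-named group over second) with standard errors for the 10 genes in 4 comparisons, fitted on 13 libraries (filled) or without UC7-IFNa 2 (open). In the comparison of UC7-13D5 with IgG under PBS all points lie left of 0, and in both comparisons that use UC7-IFNa the open points lie left of the filled ones for all genes except Dnaja1.

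Several other measures moved with the same libraries. The summed level of 20 early-response genes known to be induced by stimulation and by tissue dissociation was 9416 to 11358 CPM in UC7-PBS and 13297 to 14081 CPM in IgG-PBS libraries, without overlap. Of these 20 genes, 16 had a fold change below 0 in UC7-PBS against IgG-PBS, beside 51.7% of all genes. An unadjusted p under 0.05 was found for 5, all 5 lower, beside 1.55% of all genes in this direction. Fos was at -0.79 (SE 0.16, edgeR adjusted p = 0.196) and Jun at -1.24 (SE 0.28, adjusted p = 0.275). Transcripts of secretory epithelial cells, 12 genes of which Dclk1 was under 1 CPM everywhere, summed to 862 to 2004 CPM in UC7-PBS and 89.4 to 588 CPM in IgG-PBS libraries. Markers of gamma delta intraepithelial lymphocytes, 12 genes, summed to 57649 to 67397 CPM in UC7-PBS and 49323 to 53629.5 CPM in IgG-PBS libraries. The 18 markers of absorptive enterocytes (789 to 849.7 CPM in UC7-PBS and 471 to 743 CPM in IgG-PBS) and the myeloid markers (165 to 227 CPM in UC7-PBS and 134 to 144 CPM in IgG-PBS) did not overlap either. Of the 12 myeloid genes, 10 were in the table, with S100a8 under 1 CPM everywhere. Markers of B and plasma cells, of alpha beta T cells and of stroma and endothelium overlapped between the groups. So did the shares of mitochondrial transcripts and of Rn18s. Trdc, among the gamma delta intraepithelial lymphocyte markers, overlapped too, with means of 205 CPM in UC7-PBS and 181 CPM in IgG-PBS libraries. Other genes of that list made up nearly all of its sum. The part of these measures in the chaperone levels was not tested.

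**Figure D4:**
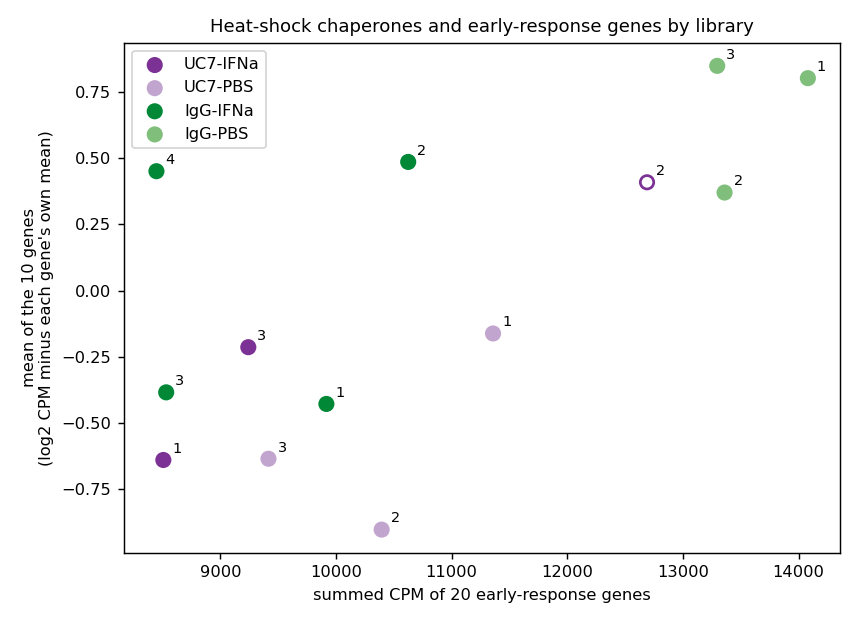
Mean of the 10 genes (log2 CPM less each gene's own mean, vertical axis) against the summed CPM of 20 early-response genes (horizontal axis), 1 point per library with its replicate number, and UC7-IFNa 2 open. IgG-PBS libraries and UC7-IFNa 2 lie at the upper right, with sums between 12689.8 and 14081 CPM, while IgG-IFNa 4 has a high chaperone mean at the lowest early-gene sum, 8448 CPM.

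The next question was whether IFNa went with another chaperone level without the receptor antibody. After IgG all 10 members had a fold change below 0 in IgG-IFNa against IgG-PBS libraries, with a median log2 fold change of -0.39 against -0.01 over all genes, and 51.6% of all genes were below 0. None passed the adjusted threshold in edgeR, where 0.827% of all genes did. DESeq2 and limma on the authors' normalized counts also called none, beside 2.56% and 1.29% of all genes, and limma-voom called 1, Dnajb1, beside 2.51% of all genes. At an unadjusted p under 0.05, 3 members were lower (Hspa8, Hspa1b and Dnajb1), as were 4.61% of all genes, and only Dnajb1 had groups that did not overlap, as did 6.91% of all genes in this direction. With Y-linked transcripts as a covariate, 0 members had an unadjusted p under 0.05, beside 1102 of all genes in either direction. This comparison uses the same IgG-PBS libraries as the one above, so both share any peculiarity of those 3.

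Dnajb1 had 292, 671, 310.3 and 529 CPM in IgG-IFNa libraries, against 1151, 861 and 1163 CPM in IgG-PBS libraries. All 4 IgG-IFNa libraries lay below all 3 IgG-PBS libraries. The log2 fold change was -1.23 (SE 0.38, edgeR adjusted p = 0.194) and with limma-voom -1.36 (adjusted p = 0.0499, in a range of 0.0499 to 0.771 over 25 alternatives). Hspa1a had 303, 1195, 307 and 769 CPM in IgG-IFNa libraries, which overlapped IgG-PBS, for a log2 fold change of -1.20 (SE 0.60, adjusted p = 0.515). Hspa1b had 439, 1625, 462 and 1137 CPM in IgG-IFNa libraries, of which library 2 lay above IgG-PBS 2, for a log2 fold change of -1.34 (SE 0.58, adjusted p = 0.419). For all 3 genes IgG-IFNa 1 and 3 were low and IgG-IFNa 2 and 4 high.

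Hspa8 had 1702, 2389.7, 1332 and 2143 CPM in IgG-IFNa libraries, with library 2 just above IgG-PBS 2 and the other three below all IgG-PBS libraries, for a log2 fold change of -0.49 (SE 0.20, adjusted p = 0.361). Hsp90aa1 had 269.7, 345, 310.3 and 448 CPM in IgG-IFNa libraries (log2 fold change -0.54, SE 0.27, adjusted p = 0.501). For the other 5 members the fold changes were smaller and the groups overlapped. Hsp90ab1 had 1128, 1549, 1182 and 1735 CPM in IgG-IFNa libraries, of which library 4 alone reached the IgG-PBS range (log2 fold change -0.29, SE 0.19), and Dnaja1 had 549.6, 672, 534 and 719.5 CPM (log2 fold change -0.12, SE 0.15). Hsph1, with 151, 372, 141 and 367 CPM in IgG-IFNa libraries, reached the highest values of all 13 libraries in IgG-IFNa 2 and 4, and its log2 fold change of -0.16 (SE 0.33) turned to 0.03 without IgG-IFNa 1 and to 0.04 without IgG-IFNa 3. Hspe1 had 47.7, 73.0, 65.1 and 94.8 CPM in IgG-IFNa libraries, of which library 4 alone was not below all IgG-PBS libraries (log2 fold change -0.23, SE 0.32), and Hspd1 had 120.1, 179, 123 and 221 CPM (log2 fold change -0.18, SE 0.22).

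The same comparison was repeated with each pair of IgG-IFNa libraries that the sex-linked transcripts set apart. Only IgG-IFNa 1 and 2 resemble IgG-PBS in these transcripts, while 3 and 4 also have Y-linked ones. Against IgG-PBS, which has Xist, the members' median log2 fold change was -0.41 for IgG-IFNa 1 and 2 alone and -0.31 for IgG-IFNa 3 and 4 alone, with all 10 below 0 in each. An unadjusted p under 0.05 (edgeR) was found for 1 member with IgG-IFNa 1 and 2, beside 1002 of all genes in either direction. With IgG-IFNa 3 and 4 it was found for 4 members, beside 1852 of all genes. The early-response genes were also lower with IFNa after IgG: they summed to 8448 to 10625 CPM in IgG-IFNa and 13297 to 14081 CPM in IgG-PBS libraries. Of the 20, 4 passed the adjusted threshold, all lower, as did 0.208% of all genes in this direction. Among the 4 were Fos (-1.02, SE 0.14, edgeR adjusted p = 0.00378) and Jun (-1.48, SE 0.26, adjusted p = 0.0159). Markers of secretory epithelium summed to 610.2 to 1232 CPM in IgG-IFNa and 89.4 to 588 CPM in IgG-PBS libraries, and the gamma delta intraepithelial lymphocyte markers to 55721 to 68895 CPM in IgG-IFNa and 49323 to 53629.5 CPM in IgG-PBS libraries. Mitochondrial transcripts took 0.582% to 0.801% of counts in IgG-IFNa and 0.866% to 1.73% in IgG-PBS libraries. All 3 measures thus separated the groups without overlap, while the enterocyte and myeloid markers overlapped. Trdc, among the gamma delta intraepithelial lymphocyte markers, overlapped too, with means of 179 CPM in IgG-IFNa and 181 CPM in IgG-PBS libraries. The part of these measures in the chaperone values was not tested.

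After UC7-13D5 the sign was the opposite. All 10 members had a fold change above 0 in UC7-IFNa against UC7-PBS libraries, as had 52.7% of all genes, with a median log2 fold change of 0.44 against 0.02 over all genes. None passed the adjusted threshold in edgeR (0.36% of all genes did), in DESeq2 (0.89%), in limma-voom (2.61%) or in limma on the authors' normalized counts (0.461%). At an unadjusted p under 0.05, 2 members were higher, Hsph1 and Hspe1, as were 4.46% of all genes, and 2 had groups that did not overlap, Hsph1 and Dnaja1, as had 5.89% of all genes in this direction. With Y-linked transcripts as a covariate, 0 members had an unadjusted p under 0.05, beside 1201 of all genes in either direction. In these groups the Y-linked sum was 132 CPM in UC7-IFNa 2 and 299.9 to 329 CPM in the other libraries. The covariate thus mainly sets UC7-IFNa 2 apart in this comparison. Much of the size rested on UC7-IFNa 2. Without it 6 of 10 members were above 0, beside 47.3% of all genes, the median was 0.13, 1 member (Dnaja1) had an unadjusted p under 0.05, beside 6% of all genes, and again none passed the adjusted threshold, which 0.678% of all genes did.

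Hspe1, the small chaperonin subunit, had 42.0, 141 and 51.2 CPM in UC7-IFNa libraries, against 44.1, 40.4 and 42.4 CPM in UC7-PBS libraries. UC7-IFNa 2 had the highest Hspe1 level of all 13 libraries, and the other two lay near the UC7-PBS range. The log2 fold change was 0.88 (SE 0.35, adjusted p = 0.569), and 0.13 (SE 0.21) without UC7-IFNa 2. Hspd1, the partner of Hspe1 in the chaperonin, had 107, 139 and 139 CPM in UC7-IFNa libraries, and so was at about the same level in UC7-IFNa 2 and UC7-IFNa 3.

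Hspa1a had 268, 984 and 404 CPM in UC7-IFNa libraries, Hspa1b 392, 1493 and 560.4 CPM, Dnajb1 249.7, 844 and 309.6 CPM, and Hsp90aa1 199, 496 and 237 CPM, with UC7-IFNa 2 the highest for each. For these 4 genes the groups overlapped and the sign turned when UC7-IFNa 2 was left out: the log2 fold change was 0.63 with it and -0.10 without it for Hspa1a, 0.52 and -0.27 for Hspa1b, 0.52 and -0.23 for Dnajb1, and 0.26 and -0.26 for Hsp90aa1. For Hsph1 the value was similar with and without that library. It had 148, 204 and 233 CPM in UC7-IFNa libraries, all above the 146, 79.7 and 118 CPM in UC7-PBS libraries, with a log2 fold change of 0.77 (SE 0.36, adjusted p = 0.643), and 0.73 (SE 0.48) without it.

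Dnaja1 had 520.5, 485 and 662 CPM in UC7-IFNa libraries, all above the 462, 464 and 451 CPM in UC7-PBS libraries, though UC7-IFNa 2 was the lowest of its group. The log2 fold change was 0.28 (SE 0.16, adjusted p = 0.731), and 0.36 without UC7-IFNa 2. Hspa8 had 1305, 1849.6 and 1850.1 CPM in UC7-IFNa libraries, of which the first lay within the UC7-PBS range (log2 fold change 0.37, SE 0.21, adjusted p = 0.722, and 0.28 without UC7-IFNa 2). Hsp90ab1, with 935, 1447 and 1249 CPM in UC7-IFNa libraries, and Hspd1 gave log2 fold changes of 0.28 (SE 0.20) and 0.23 (SE 0.23), or 0.13 and 0.16 without UC7-IFNa 2, and their groups overlapped. The early-response genes summed to 12689.8 CPM in UC7-IFNa 2 and to 8507 and 9242 CPM in UC7-IFNa 1 and 3, against 9416 to 11358 CPM in UC7-PBS libraries, and their part in the chaperone values was not tested.

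With IFNa in both arms, UC7-13D5 went with smaller differences. Of the 10 members, 8 had a fold change below 0 in UC7-IFNa against IgG-IFNa libraries, beside 48.4% of all genes, and Dnajb1 and Hspe1 were above 0. The median log2 fold change was -0.17 against 0.01 over all genes, and the values ran between -0.40 for Hsph1 and 0.15 for Hspe1. No member passed the adjusted threshold in edgeR (0.0758% of all genes did), DESeq2 (0.758%), limma-voom (0.221%) or limma on the authors' normalized counts (0.0177%), and no member had an unadjusted p under 0.05, beside 7.19% of all genes. The groups overlapped for all 10. With Y-linked transcripts as a covariate, 0 members had an unadjusted p under 0.05, beside 2052 of all genes in either direction. Xist separated these groups as well, so it cannot be told apart from the antibody here. Without UC7-IFNa 2 all 10 were below 0, beside 53.3% of all genes, with a median of -0.52, and Hsp90aa1 (-0.67, SE 0.21, adjusted p = 0.459) and Hspe1 (-0.60, SE 0.20, adjusted p = 0.497) were lower at an unadjusted p under 0.05, beside 2.9% of all genes in this direction.

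The difference between the IFNa effect after UC7-13D5 and the IFNa effect after IgG was tested as an interaction. It was above 0 for all 10 members, beside 52% of all genes, with a median log2 difference of 0.89 against 0.02 over all genes. No member and 0% of all genes passed the adjusted threshold in edgeR, no member did in DESeq2 (0.0316% of all genes), limma-voom (0%) or limma on the authors' normalized counts (0%), and 3 members (Hspa8, Dnajb1 and Hspe1) had an unadjusted p under 0.05, beside 1.52% of all genes in this direction. The log2 difference was 1.76 (SE 0.56) for Dnajb1, 1.11 (SE 0.47) for Hspe1 and 0.86 (SE 0.29) for Hspa8, each with an adjusted p of 1.00 (edgeR). Without UC7-IFNa 2 the median was 0.62, and Dnajb1, Hspe1 and Hspa8 gave 1.00, 0.36 and 0.77. With Y-linked transcripts as a covariate, the members' log2 differences ran between 0.52 and 1.27. In that fit 2 members had an unadjusted p under 0.05, beside 323 of all genes in either direction. Sex-linked transcripts differed among the groups used here, and their part cannot be told apart. The difference is computed from the libraries of the comparisons above, so its sign is not a separate observation.

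The wider chaperone network was described from 70 further genes, of which 67 were tested, listed by family. In UC7-PBS against IgG-PBS libraries 47 of the 67 had a fold change below 0, beside 51.7% of all genes. The median log2 fold change of the 67 was -0.08, against -0.01 over all genes, while the members' median was -0.999. The 8 subunits of the cytosolic chaperonin TRiC, which folds actin and tubulin, had a median of -0.05, and the 9 other Hsp70 and Hsp110 proteins tested, among them the endoplasmic and mitochondrial Hsp70s, -0.14. The 20 other J-domain proteins had a median of -0.01, the 14 other Hsp90 proteins and co-chaperones -0.13, and the 9 nucleotide exchange factors and partners -0.18. Among the 4 small heat-shock proteins tested, which hold unfolded proteins without ATP, Hspb1 averaged 2.20 CPM in UC7-PBS and 7.40 CPM in IgG-PBS libraries with overlapping groups (log2 fold change -1.75, SE 0.90, edgeR adjusted p = 1.00), and it is named because it lay far from its family in the plot by family. Of 67 genes none passed the adjusted threshold in edgeR in this comparison, 1 did in DESeq2 and 1 in limma-voom. Of all genes 0.00632%, 0.436% and 0.12% did in these fits. An unadjusted p under 0.05 was found for 7 of the 67, 4 lower and 3 higher, beside 1.55% and 3.45% of all genes. Hsf1 averaged nearly the same in all 4 groups, with a log2 fold change of -0.05 (SE 0.15) here.

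**Figure D5:**
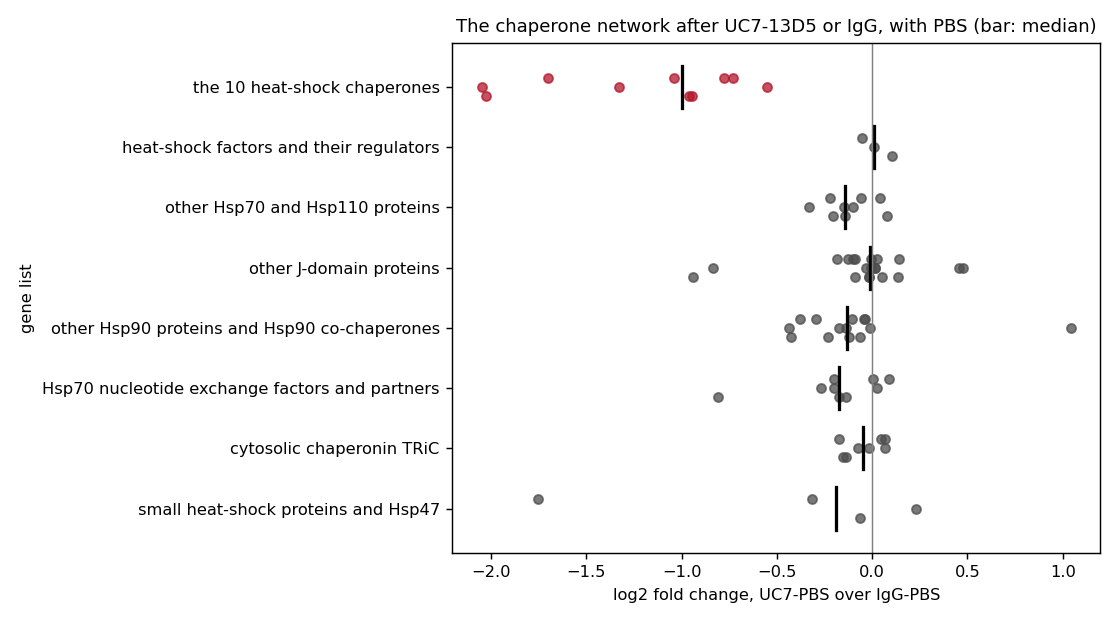
Log2 fold change of UC7-PBS over IgG-PBS (horizontal axis) for the 10 heat-shock chaperones (red) and 67 other genes of the chaperone network by family (grey), with the median as a bar. The 10 genes lie between -2.05 and -0.55, and the medians of the other 7 families lie between -0.19 and 0.01.

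Dnajb4 and Dnaja4, both J-domain proteins, had the smallest p among network genes in UC7-PBS against IgG-PBS libraries. Dnajb4 averaged 43.0 ± 5.62 CPM in IgG-IFNa and 78.3 ± 9.17 CPM in IgG-PBS libraries (SD, n = 4 and n = 3) and fell with IFNa after IgG by 0.87 on the log2 scale (SE 0.17, edgeR adjusted p = 0.03), the only network gene called in any comparison. That call was lost when IgG-IFNa 1, 3 or 4 or any IgG-PBS library was left out. In UC7-PBS Dnajb4 averaged 43.8 ± 8.76 CPM, with a log2 fold change against IgG-PBS of -0.84 (SE 0.19, adjusted p = 0.275), and Dnaja4 averaged 54.0 ± 5.45 CPM in UC7-PBS and 104 ± 14.4 CPM in IgG-PBS libraries (log2 fold change -0.94, SE 0.25, adjusted p = 0.394). Fkbp5, an Hsp90 co-chaperone of steroid receptors that glucocorticoids induce, went the other way, with 184 ± 36.7 CPM in UC7-PBS and 89.3 ± 23.9 CPM in IgG-PBS libraries (log2 fold change 1.04, SE 0.30, adjusted p = 0.463). Under IFNa it averaged 151 ± 50.9 CPM in UC7-IFNa and 76.9 ± 29.9 CPM in IgG-IFNa libraries (log2 fold change 0.97, SE 0.28, adjusted p = 0.318, and 1.199 without UC7-IFNa 2).

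The other network genes with the smallest p in a comparison also missed the threshold. With IFNa after UC7-13D5 these were Dnajb2, a J-domain protein (log2 fold change 0.68, SE 0.17, adjusted p = 0.197), and the Hsp90 co-chaperones Tomm34 (0.52, SE 0.16, adjusted p = 0.365) and Fkbp4 (0.65, SE 0.19, adjusted p = 0.365). Between UC7-IFNa and IgG-IFNa they were Bag4, which binds Hsp70 (0.26, SE 0.14), and Dnajc10, a J-domain protein of the endoplasmic reticulum (-0.34, SE 0.19). For the difference of the IFNa effects they were Dnaja4 (0.94, SE 0.34), Dnajb4 (0.70, SE 0.26) and Bag3, an Hsp70 exchange factor induced by heat shock (1.16, SE 0.53). Without UC7-IFNa 2 the log2 fold changes were 0.74 for Dnajb2, 0.36 for Tomm34 and 0.60 for Fkbp4 with IFNa after UC7-13D5, and 0.36 for Bag4 and -0.14 for Dnajc10 between UC7-IFNa and IgG-IFNa. The log2 differences were then 0.77 for Dnaja4, 0.51 for Dnajb4 and 0.33 for Bag3.

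The genes whose pattern was most like the members' mean (Pearson correlation of log2 CPM over 13 libraries, among 9281 genes) were headed by near-identical copies of members. They were the processed pseudogenes Gm8355 (0.958) and Gm15459 (0.947) of Hspa8 and Gm5844 (0.954) and Gm12346 (0.948) of Hsp90aa1. They were followed by Dnaja4 (0.937), Ctla2a (0.919), Opa3 (0.876), the TRiC subunit Cct7 (0.796) and Dnajb4 (0.788). Over 12 libraries without UC7-IFNa 2, the Hspd1 copy Hspd1-ps3 (0.955) and Zfp433 (0.866) took the places of Cct7 and Dnajb4. Reads from members can be assigned to such copies or the reverse. Copies held 64.6% as many counts as Hspa8, 66.4% as Dnaja1, 56.5% as Hspe1, 51.4% as Hspd1 and 42.8% as Hsp90aa1. They held 0.0983% as many as Hsp90ab1, and Dnajb1 and Hsph1 had no copy by this rule. With copies added to their member, an alternative chosen after seeing the data, the median log2 fold change of UC7-PBS over IgG-PBS was -0.99, and all 10 were still lower at an unadjusted p under 0.05.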

How the data were processed

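RNA-seq counts of 13 sorted gamma delta intraepithelial lymphocyte libraries were analysed from the deposited files. Reads were aligned with STAR 2.7.8a to mm39 and handled in Partek and DESeq2, per the submitters' processing notes, with no statement of which tool made each table. The authors' deposited raw table holds estimated counts (37.3% of values not whole), rounded here before testing. The authors' deposited normalized table equals these counts divided by 1 factor per library, a signal in which whole reads are not kept, and was used for 1 alternative.

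Genes were filtered with edgeR 4.0.16 (filterByExpr, minimum count 10), which left 15835 of 21084 genes and all 10 members. Counts were scaled by TMM and tested by edgeR's quasi-likelihood test on 4 group means, in R 4.3.3, with Benjamini-Hochberg adjustment over all genes tested and a threshold of 0.05. DESeq2 1.42.0, limma 3.58.1 (voom with quality weights) and further alternatives are in the closing section. Log2 CPM used a prior count of 2. The fit was checked on simulated counts drawn separately for each gene. These do not carry the members' correlation, the deviation of UC7-IFNa 2 or the sex-linked difference, so the check does not cover them. The labels call the libraries biological replicates of a group. Copies were transcripts aligning with BLAST 2.17.0 at 90% identity or more over at least 200 bases.

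The members and all gene lists were chosen with earlier results of these data known. Text names all members, Hsf1, network genes past the threshold or else the 3 with the smallest p in a comparison, and the 10 genes most like the members' mean at a mean log2 CPM of 3 or more. 1 of these 10 is not reported here.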

Additional observations from a re-analysis of the deposited data

How the results depend on the processing

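No alternative turned the direction of a member in UC7-PBS against IgG-PBS, and 10 of 10 stayed below 0. The number of members called there was 0 as reported, 2 with DESeq2, 1 with limma-voom and 3 with only these groups in the fit. With IFNa after IgG it was 1 with limma-voom. Over all genes, where the counts were 131, 57, 1, 12 and 0 in the order IFNa after IgG, IFNa after UC7-13D5, UC7-13D5 with PBS, UC7-13D5 with IFNa and the difference, DESeq2 called 406, 141, 69, 120 and 5, and limma-voom 398, 414, 19, 35 and 0. Over all alternatives these counts ran between 21 and 430, 22 and 414, 0 and 69, 0 and 120, and 0 and 5, and without UC7-IFNa 2 they were 430, 110, 1, 2 and 0. Network genes called with IFNa after IgG numbered 3 with DESeq2, limma-voom or only these groups, 0 with the replicate block, the Y-linked covariate or either pair of IgG-IFNa libraries left out, and 0 to 3 with 1 library left out. For IFNa after UC7-13D5 they numbered 1 with DESeq2 and 3 with limma-voom, and for UC7-13D5 with PBS 1 with DESeq2, limma-voom or only these groups. The replicate block called 0 members in every comparison and 27, 34, 1, 1 and 0 of all genes. Same-numbered libraries did not deviate together (18 correlations between -0.21 and 0.135, median -0.0501), so the numbers were not taken as pairs.

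Signs turned mostly for UC7-IFNa against IgG-IFNa, where values lay near 0. There Dnajb1 was -0.491 with limma-voom, -0.0649 on normalized counts and -0.048 without IgG-IFNa 3 and 4, and -0.70 to 0.348 with 1 library left out. Hspe1 was -0.425 with limma-voom, -0.0100 on normalized counts, -0.0407 without IgG-IFNa 1 and 2, and -0.60 to 0.446 with 1 library left out. Hspa1a was 0.0329 without IgG-IFNa 1 and 2, and -0.95 to 0.265 with 1 library left out. Hspa1b was 0.0108 with the Y-linked covariate, 0.0237 without IgG-IFNa 1 and 2, and -0.956 to 0.264 with 1 library left out. Hsp90aa1 was 0.0103 without IgG-IFNa 3 and 4, and -0.666 to 0.0876 with 1 library left out. For IFNa after UC7-13D5, limma-voom gave -0.00526 for Dnajb1 and -0.15 for Hsp90aa1, and leaving out 1 library gave -0.226 to 0.864 for Dnajb1, -0.26 to 0.493 for Hsp90aa1, -0.0966 to 1.30 for Hspa1a and -0.265 to 1.15 for Hspa1b. For IFNa after IgG, Hsph1 ran between -0.389 and 0.0442 with 1 library left out and was -0.407 with the replicate block. The low ends for UC7-IFNa came without UC7-IFNa 2. The cause was not tested.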
